A study of Homo sapiens with 6 samples.

Results

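The genes described here are the IGF binding proteins IGFBP2 to IGFBP7, the receptors IGF1R, IGF2R and INSR, and the adaptor IRS1, found by gene symbol in the count table. All 10 were present among 36884 genes, each with 1 row. RNA was sequenced from RPE1, an immortalized, non-transformed epithelial line from human retinal pigment epithelium. Both groups carried the same edit, CRISPR-Cas9 inactivation of LATS1 and LATS2, the Hippo pathway kinases that restrain the coactivators YAP and TAZ. The siMK5 cells received siRNA that targets the kinase MK5 (gene MAPKAPK5), the siCon cells received control siRNA, and transfection lasted 48 h in both. Each group had 3 libraries, named as biological replicates by the submitters. The comparison asks which transcripts respond to a knockdown of MK5 on this background. The sources used here do not say whether the edited line is 1 clone, and the siRNA sequences were not used here.

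Insulin-like growth factors are secreted ligands that signal through IGF1R, a receptor tyrosine kinase, and through its close relative, the insulin receptor INSR. Both receptors phosphorylate IRS adaptors, which recruit PI3K and so activate AKT and mTOR. IGF2R has no kinase domain and carries IGF2 and enzymes tagged with mannose 6-phosphate to lysosomes. Secreted IGF binding proteins hold the ligands in the extracellular space until proteases cleave them.

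Among the 10 genes, IGF2R and INSR rose in siMK5 cells and IGFBP2 fell. IGF2R changed by 2.61-fold and INSR by 1.75-fold, while IGFBP2 was 5.87-fold lower. IGFBP3, IGFBP5, IGFBP6, IGFBP7, IGF1R and IRS1 did not pass the test, and IGFBP4 was too low to test. The test was edgeR's quasi-likelihood test on counts over all 13431 genes that passed the filter on low counts. A gene passed at a Benjamini-Hochberg adjusted p below 0.05. Over all tested genes 46.2% passed, with 22.5% rising and 23.7% falling, so 3 of 9 tested genes is not above the background. The groups' libraries did not overlap in 4 of the 9 genes (IGFBP2, IGF2R, INSR and IRS1), against 60.4% of all tested genes. IGF2R, INSR and IRS1 lay above, as did 30.6% of all tested genes, and IGFBP2 lay below, as did 29.8%. Bulk RNA cannot tell fewer expressing cells apart from less RNA per cell.

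The libraries held between 27188074 and 28236773 counts. MAPKAPK5, the target of the siRNA, was at 17.4, 14.1 and 16.2 CPM (counts scaled to library size with TMM factors) in siMK5 replicates 1, 2 and 3 and at 35.6, 29.05 and 31.3 CPM in siCon replicates 1, 2 and 3. Its log2 fold change was −1.01 ± 0.14 (SE, edgeR adjusted p = 0.00169). The transcript was thus lowered to 0.498 of the control level and not removed. Control replicate 1 stood apart from the other controls. With counts scaled by library totals alone, without TMM factors, it lay at least 2-fold below both other controls in 10.8% of tested genes. It lay at least 2-fold above both in 4.12%. On that scale the same shares were between 0.216% and 0.380% for siCon replicates 2 and 3. Likewise, siMK5 replicate 1 lay at least 2-fold below both other siMK5 libraries in 3.0% of tested genes. Among 10 marker genes of retinal pigment epithelium, 5 averaged at least 1 CPM, with OTX2 and MITF the highest. The visual cycle genes RPE65 and RLBP1 and the tyrosinase gene TYR had at most 2 counts in any library. The summed level of the 10 was 60.4 to 67.2 CPM in siMK5 libraries and 87.6 to 101 CPM in siCon libraries. MITF, PMEL and RDH5 fell, with log2 fold changes of −1.09, −1.89 and −1.56 (edgeR adjusted p = 0.00114, 0.00189 and 0.0157). OTX2, BEST1 and SERPINF1 did not pass. The 5 leukocyte markers summed to 0.146 to 0.243 CPM in siMK5 libraries and 0.115 to 0.295 CPM in siCon libraries. Other marker lists separated the groups: 5 genes of simple epithelium summed to 387 to 573 CPM in siMK5 libraries and 753 to 827 CPM in siCon libraries, with KRT8 and KRT18 falling and EPCAM at 0, and 5 of endothelium to 0.673 to 1.17 CPM in siMK5 libraries and 2.19 to 5.75 CPM in siCon libraries, with PECAM1 at 0. The 8 genes of fibroblasts and mesenchyme summed to 3830 to 4636 CPM in siMK5 libraries and 4502 to 5155 CPM in siCon libraries. Most of this sum was VIM, at 3306 to 3787 CPM in siMK5 libraries and 3471 to 4418 CPM in siCon libraries. VIM did not pass, and among the 8 genes THY1 fell and COL1A1 rose. The part of these differences in the results was not tested.

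The promoter windows of the genes that passed are shown because IGF2R and INSR moved in the same direction and IGFBP2 in the other. Each window runs from 250 bases before to 50 bases after a RefSeq transcription start (GRCh38.p14), read 5′ to 3′ on the gene's strand. Capitals mark matches, on either strand, to the GC box GGGCGG, which SP family factors bind, and to the E-box CACGTG, which basic helix-loop-helix factors such as the MYC and TFE families bind. Windows were found for 9 of the 10 genes, IGFBP7 being the other one. In a comparison with GENCODE transcripts, none was found to start within the IGF2R or INSR window. Those windows thus rest on the RefSeq start alone, whereas IGFBP2-201 did start within the IGFBP2 window shown. The IGF2R window (chr6:159968832-159969131, plus strand), the INSR window (chr19:7294365-7294664, minus strand) and the IGFBP2 window at the start of its transcript IGFBP2-201 (chr2:216633170-216633469, plus strand) read as follows.
IGF2R: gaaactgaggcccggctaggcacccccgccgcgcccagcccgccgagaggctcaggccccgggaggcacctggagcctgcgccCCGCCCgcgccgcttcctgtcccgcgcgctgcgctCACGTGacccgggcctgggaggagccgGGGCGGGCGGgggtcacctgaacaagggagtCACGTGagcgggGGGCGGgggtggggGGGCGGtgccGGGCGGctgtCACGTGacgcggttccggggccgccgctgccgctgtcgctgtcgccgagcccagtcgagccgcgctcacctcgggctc
INSR: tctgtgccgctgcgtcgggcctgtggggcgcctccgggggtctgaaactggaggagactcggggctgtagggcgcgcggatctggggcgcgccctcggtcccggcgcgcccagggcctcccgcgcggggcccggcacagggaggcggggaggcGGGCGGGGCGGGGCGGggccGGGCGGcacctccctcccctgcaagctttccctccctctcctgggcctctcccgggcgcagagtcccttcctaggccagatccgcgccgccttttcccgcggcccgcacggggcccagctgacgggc
IGFBP2: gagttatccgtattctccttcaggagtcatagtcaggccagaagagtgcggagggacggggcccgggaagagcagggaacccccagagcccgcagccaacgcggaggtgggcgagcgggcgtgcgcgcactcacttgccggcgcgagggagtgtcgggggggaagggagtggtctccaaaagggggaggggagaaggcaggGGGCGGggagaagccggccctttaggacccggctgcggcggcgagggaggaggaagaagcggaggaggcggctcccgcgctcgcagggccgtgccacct

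The IGF2R window held 3 matches to CACGTG and 6 to GGGCGG, of which a pair overlapped each other. Of 35116 RefSeq promoter windows of 300 bases, 7.26% held CACGTG at least once and 33 (0.094%) held it at least 3 times. The GC box was in 45.0% of windows, and 2.86% held at least 6 matches. The INSR window held 4 GC boxes, of which 3 overlapped in a run, and no CACGTG, and 9.06% of all windows held at least 4 GC boxes. The IGFBP2 window shown held 1 GC box, and the windows at its other RefSeq starts held 1 and 0. The windows were rich in G and C, at 78.7% for IGF2R, 78.3% for INSR and 70.0% for IGFBP2, against a median of 58.7% over all windows. The words GGAATG (TEAD factors), TGANTCA (AP-1), GTAAACA (FOXO factors) and TGACGTCA (CREB and ATF factors) were searched on both strands as well. None of these was in the 3 windows shown, and they were in 14.0%, 7.71%, 3.42% and 1.85% of all windows. GC boxes were not particular to the genes that passed, since the IRS1 window also held 4 and the IGF1R, IGFBP3 and IGFBP4 windows 2 each. Among the other windows, IRS1 held CACGTG and GGAATG, IGFBP5 held GGAATG, and IGFBP6 held GGAATG and GTAAACA. Such matches describe the letters of the windows and do not show binding.

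IGFBP2, a binding protein that also contacts integrins, had 22, 17 and 27 counts in siMK5 replicates 1, 2 and 3, against 192, 83 and 87 counts in siCon replicates 1, 2 and 3. These are levels of 0.803, 0.591 and 0.909 CPM in siMK5 libraries and 7.36, 3.06 and 3.18 CPM in siCon libraries. Every siMK5 library was below every siCon library, and control replicate 1 was the highest of all. The means were 0.768 ± 0.162 CPM in siMK5 and 4.53 ± 2.45 CPM in siCon (SD, n = 3 each). The log2 fold change was −2.55 ± 0.43 (SE, edgeR adjusted p = 0.00354). Without control replicate 1 it was −2.01, and leaving out any other library gave values between −2.80 and −2.39. A change at least as low was seen in 1.18% of all tested genes. IGFBP2 was the lowest of the 9 tested genes in level per length. Of the summed level of IGFBP2 to IGFBP7 it made up 0.0700% to 0.108% in siMK5 libraries and 0.303% to 1.10% in siCon libraries.

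IGFBP3, the main carrier of IGFs in serum, was at 198, 270.1 and 318 CPM in siMK5 replicates 1, 2 and 3 and at 153, 211 and 229 CPM in siCon replicates 1, 2 and 3. Replicate 1 was the lowest library of both groups, and siMK5 replicate 1 lay below siCon replicates 2 and 3. The means were 262 ± 60.3 CPM in siMK5 and 198 ± 39.8 CPM in siCon (SD, n = 3 each), a log2 fold change of 0.41 ± 0.22 that did not pass (SE, edgeR adjusted p = 0.167). Within replicates of the same number the differences were 0.37, 0.36 and 0.47 on the log2(CPM + 0.5) scale. With replicate number as a block in the edgeR fit, IGFBP3 passed at 0.40 (edgeR adjusted p = 0.0220).

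IGFBP5, which binds extracellular matrix as well as IGFs, was at 145, 105 and 100.4 CPM in siMK5 replicates 1, 2 and 3 and at 30.8, 218 and 186 CPM in siCon replicates 1, 2 and 3. The siMK5 libraries lay between the extremes of the controls, since control replicate 1 was far below the other controls. The log2 fold change was −0.31 ± 0.61 and did not pass (SE, edgeR adjusted p = 0.700). It was −0.79 without control replicate 1, where it passed (edgeR adjusted p = 0.00305), and 0.10 without control replicate 2 (edgeR adjusted p = 0.917). Within replicate numbers 1, 2 and 3 the differences were 2.21, −1.05 and −0.89 on the log2(CPM + 0.5) scale, so that replicate 1 ran against the other replicates.

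IGFBP6, which prefers IGF2 to IGF1, was at 65.2, 53.7 and 50.4 CPM in siMK5 replicates 1, 2 and 3 and at 55.4, 114 and 109.8 CPM in siCon replicates 1, 2 and 3. The siMK5 libraries were alike, and control replicate 1 lay among them. The log2 fold change was −0.72 ± 0.28 and missed the threshold (SE, edgeR adjusted p = 0.0683). Without control replicate 1 it was −0.99 and passed (edgeR adjusted p = 0.000166), and within replicate numbers 1, 2 and 3 the differences were 0.23, −1.09 and −1.12 on the log2(CPM + 0.5) scale. IGFBP5 and IGFBP6 were thus lower in siMK5 libraries in replicates 2 and 3 and higher in replicate 1. With replicates 2 and 3 alone, IGFBP5 gave −0.97 and IGFBP6 gave −1.10.

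IGFBP7, a relative with weak affinity for IGFs, was at 169, 119 and 105 CPM in siMK5 replicates 1, 2 and 3 and at 114, 88.7 and 108 CPM in siCon replicates 1, 2 and 3. The groups overlapped, and siMK5 replicate 1 was the highest library. Its log2 fold change was 0.34 ± 0.20 and did not pass (SE, edgeR adjusted p = 0.195), and it was 0.12 without siMK5 replicate 1 (edgeR adjusted p = 0.556). In GENCODE 29, 270 of 1930 exonic bases of IGFBP7 lie opposite exons of POLR2B, which had 5204 to 5869 counts in siMK5 libraries and 6225 to 6476 counts in siCon libraries. The strand setting of the counting is not given in the sources used here, so reads of this stretch cannot be told apart. Likewise 298 exonic bases of IGFBP5 lie opposite an annotated antisense RNA that was not analysed here. IGFBP4 had 6, 0 and 2 counts in siMK5 replicates 1, 2 and 3 and 4, 8 and 10 counts in siCon replicates 1, 2 and 3. It was thus at or near the limit of detection, 3 counts being 0.101 to 0.115 CPM in these libraries.

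**Figure D1:**
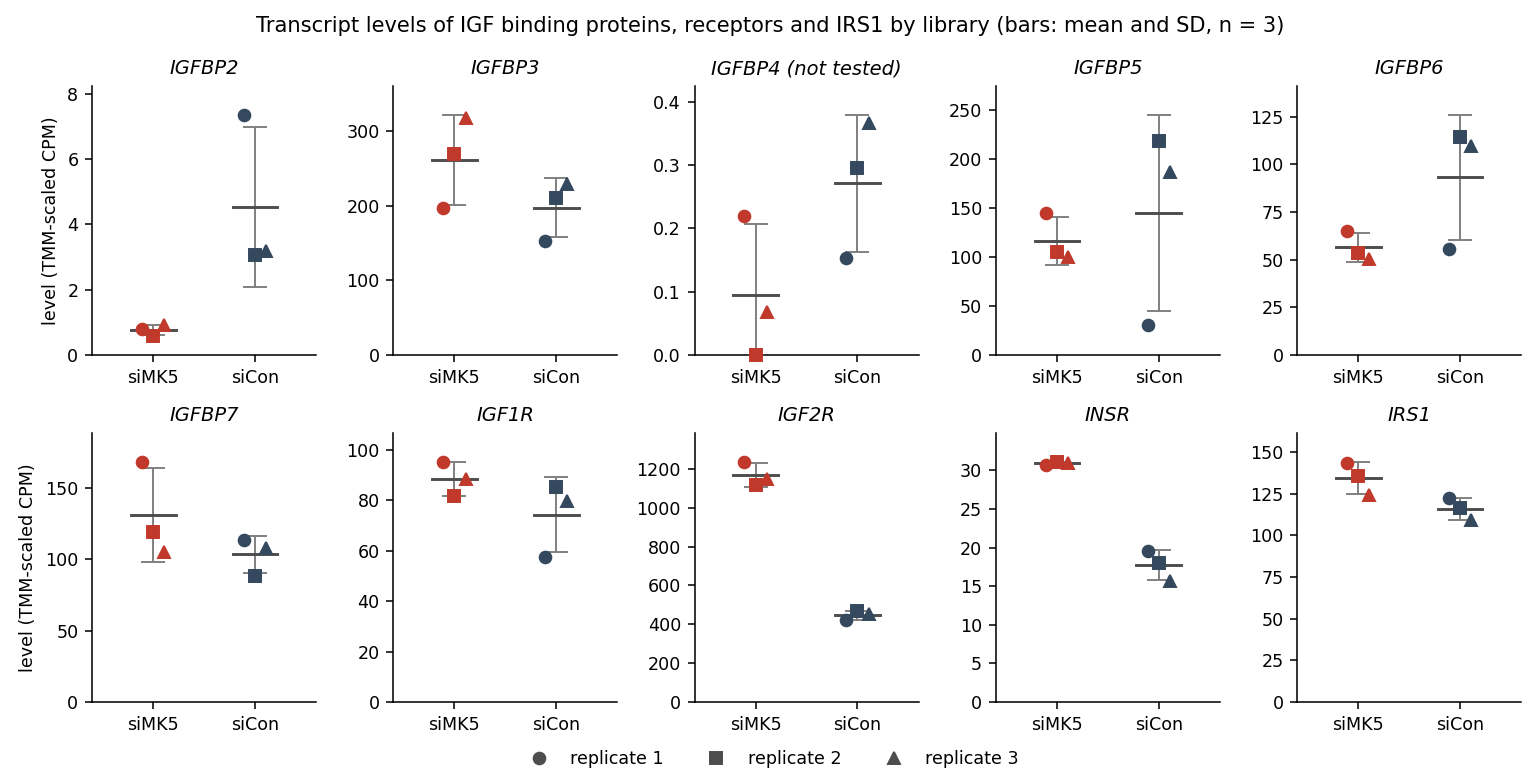
Levels in TMM-scaled CPM (vertical axes, linear from 0, a scale per gene) of the 10 genes in each of the 3 siMK5 and 3 siCon libraries, with symbols for replicates and bars for the mean and SD. IGFBP2, IGF2R, INSR and IRS1 have groups that do not overlap, and control replicate 1 lies far below the other controls in IGFBP5 (30.8 CPM) and IGFBP6 (55.4 CPM).

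Per kilobase of exon, the scale on which genes can be compared, 4 binding proteins made up nearly all of the summed level of IGFBP2 to IGFBP7. IGFBP1, described below, was left out of this sum. It was at 4.94 ± 1.65 CPM per kb in siMK5 and 1.94 ± 1.11 in siCon (SD, n = 3 each). IGFBP7 was at 68.0 ± 17.2 CPM per kb in siMK5 and 53.7 ± 6.83 in siCon, and IGFBP3 was at 57.3 ± 13.2 in siMK5 and 43.2 ± 8.71 in siCon (SD, n = 3 each). IGFBP6 was at 41.9 ± 5.79 CPM per kb in siMK5 and 69.3 ± 24.4 in siCon, and IGFBP5 was at 18.1 ± 3.80 in siMK5 and 22.5 ± 15.5 in siCon (SD, n = 3 each). In siMK5 the mean levels ran IGFBP7, IGFBP3, IGFBP6, IGFBP5, and in siCon IGFBP6, IGFBP7, IGFBP3, IGFBP5, and neighbours in either order lay within a sum of their SDs, except IGFBP6 and IGFBP5 in siMK5. IGFBP2 was at 0.161 ± 0.0339 CPM per kb in siMK5 and 0.951 ± 0.513 in siCon, and IGFBP4 at 0.0434 ± 0.0510 in siMK5 and 0.123 ± 0.0492 in siCon (SD, n = 3 each). The summed level of the 6 was 202, 177 and 177 CPM per kb in siMK5 replicates 1, 2 and 3 and 139.9, 212 and 218 in siCon replicates 1, 2 and 3. The summed level in siMK5 libraries thus lay between control replicate 1 and the other controls.

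In the make-up of this sum, the shares of IGFBP2, given above, IGFBP4 and IGFBP6 did not overlap between the groups. In level the groups did not overlap in 60.4% of all tested genes, and no such figure was computed for shares. The levels of IGFBP4 and IGFBP6 themselves overlapped. IGFBP4, at or near the limit of detection, contributed at most 0.0493% in siMK5 libraries and at least 0.0498% in siCon libraries. Its level was 0.219 CPM in siMK5 replicate 1, above 0.153 CPM in siCon replicate 1. IGFBP6 contributed 24.0%, 22.5% and 21.1% in siMK5 replicates 1, 2 and 3 and 29.4%, 40.2% and 37.5% in siCon replicates 1, 2 and 3. IGFBP3 contributed 21.4%, 33.3% and 39.2% in siMK5 and 23.9%, 21.8% and 23.03% in siCon, so that siMK5 replicate 1 lay below every control and the other siMK5 libraries above. These shares are descriptions without a test. They depend on exonic lengths from GENCODE 29 (GRCh38), which count every annotated exon of a gene.

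IGF2R, the sorting receptor for IGF2 and lysosomal enzymes, was at 1237, 1118 and 1146 CPM in siMK5 replicates 1, 2 and 3, against 420.4, 467 and 452 CPM in siCon replicates 1, 2 and 3. All siMK5 libraries were above all siCon libraries, and the libraries of a group lay close together, control replicate 1 included. The means were 1167 ± 62.6 CPM in siMK5 and 446 ± 23.9 CPM in siCon (SD, n = 3 each). On the log2 scale IGF2R rose by 1.39 ± 0.10 (SE, edgeR adjusted p = 0.000247), and it was between 1.34 and 1.42 when any 1 library was left out. A change at least as high was seen in 6.32% of all tested genes. Within replicate numbers 1, 2 and 3 the differences were 1.56, 1.26 and 1.34 on the log2(CPM + 0.5) scale.

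INSR, the insulin receptor, was at 30.7, 31.1 and 30.97 CPM in siMK5 replicates 1, 2 and 3, against 19.5, 18.0 and 15.7 CPM in siCon replicates 1, 2 and 3. The groups did not overlap, and the siMK5 libraries were almost equal. INSR rose by 0.80 ± 0.12 on the log2 scale (SE, edgeR adjusted p = 0.00248), and by between 0.70 and 0.89 when any 1 library was left out. A change at least as high was seen in 16.0% of all tested genes.

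IGF1R, the receptor of IGF1 and IGF2, was at 95.3, 81.9 and 88.6 CPM in siMK5 replicates 1, 2 and 3 and at 57.5, 85.4 and 79.9 CPM in siCon replicates 1, 2 and 3. The groups overlapped, and control replicate 1 was the lowest library. The log2 fold change of 0.25 ± 0.16 did not pass (SE, edgeR adjusted p = 0.242), and it was 0.10 without control replicate 1 (edgeR adjusted p = 0.311) and 0.05 with replicates 2 and 3 alone (edgeR adjusted p = 0.521). Per length, IGF2R was the most abundant receptor transcript, at 65.4 ± 3.51 CPM per kb in siMK5 and 25.02 ± 1.34 in siCon (SD, n = 3 each). IGF1R was at 6.36 ± 0.483 CPM per kb in siMK5 and 5.33 ± 1.06 in siCon, and INSR at 2.96 ± 0.0194 in siMK5 and 1.70 ± 0.187 in siCon (SD, n = 3 each). This order was the same in every library, and the levels of neighbours in it lay apart by more than their SDs. Of the summed level of both tyrosine kinase receptors, INSR made up 30.1%, 33.7% and 31.8% in siMK5 replicates 1, 2 and 3 and 31.2%, 21.9% and 20.7% in siCon replicates 1, 2 and 3. The ranges overlapped through control replicate 1.

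IRS1, the adaptor phosphorylated by both tyrosine kinase receptors, was at 144, 135 and 124 CPM in siMK5 replicates 1, 2 and 3 and at 122, 116 and 109.0 CPM in siCon replicates 1, 2 and 3. All siMK5 libraries were above all siCon libraries, by a small margin. The log2 fold change of 0.21 ± 0.10 did not pass (SE, edgeR adjusted p = 0.133), and it passed at 0.26 without control replicate 1 (edgeR adjusted p = 0.0263). It also passed at 0.32 with scaling by library totals alone (edgeR adjusted p = 0.0288), a scaling that moves the median of all tested genes by 0.10. Its relative IRS2, chosen for mention after its values were seen, was at 142, 97.3 and 96.7 CPM in siMK5 replicates 1, 2 and 3 and at 53.5, 51.5 and 51.8 CPM in siCon replicates 1, 2 and 3. IRS2 rose by 1.10 ± 0.17 on the log2 scale (SE, edgeR adjusted p = 0.00251). Per length, IRS1 was at 13.5 ± 0.985 CPM per kb and IRS2 at 13.8 ± 3.23 in siMK5, and IRS1 was at 11.6 ± 0.674 and IRS2 at 6.42 ± 0.131 in siCon (SD, n = 3 each).

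**Figure D2:**
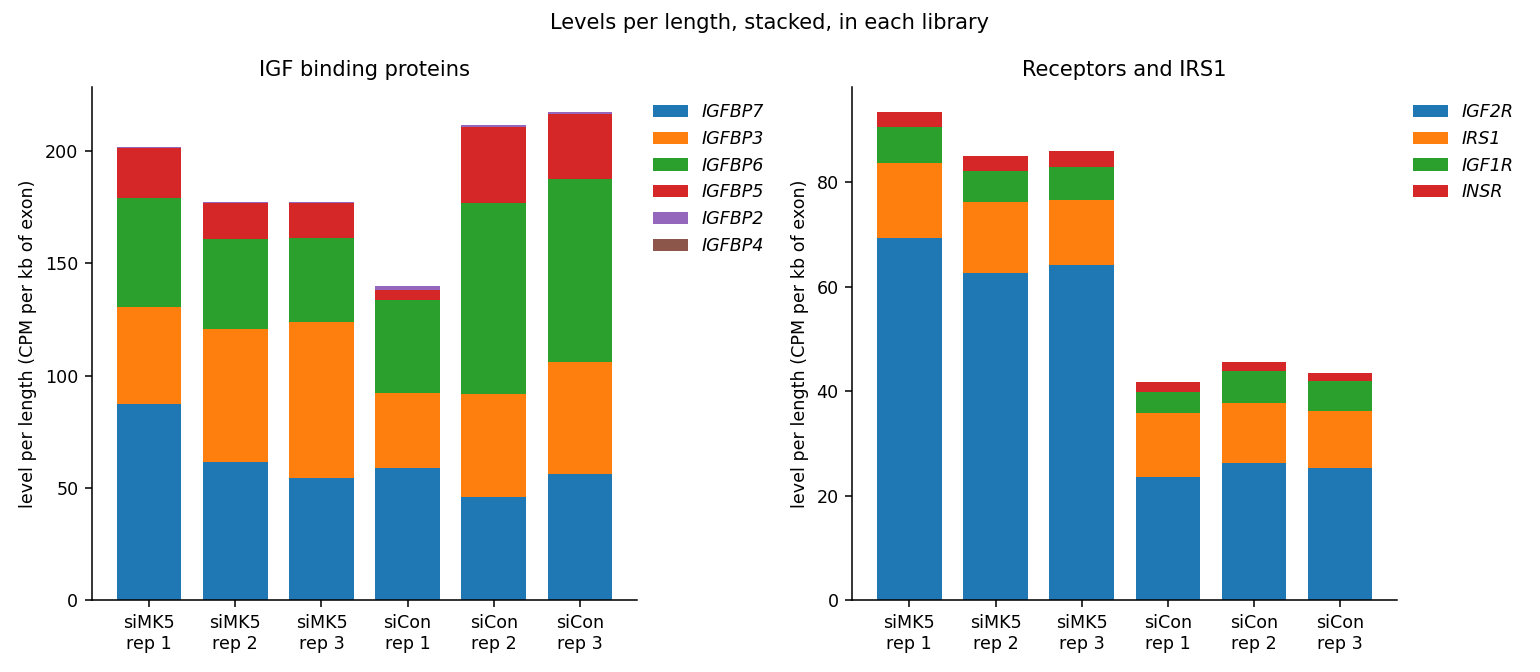
Stacked levels in CPM per kb of exon (vertical axes from 0) of the 6 binding proteins (left) and of the receptors and IRS1 (right) in the siMK5 libraries and the siCon libraries. IGF2R stands at 65.4 CPM per kb in siMK5 against 25.02 in siCon on average, while the summed binding proteins show no such step and are lowest in control replicate 1 (139.9).

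**Figure D3:**
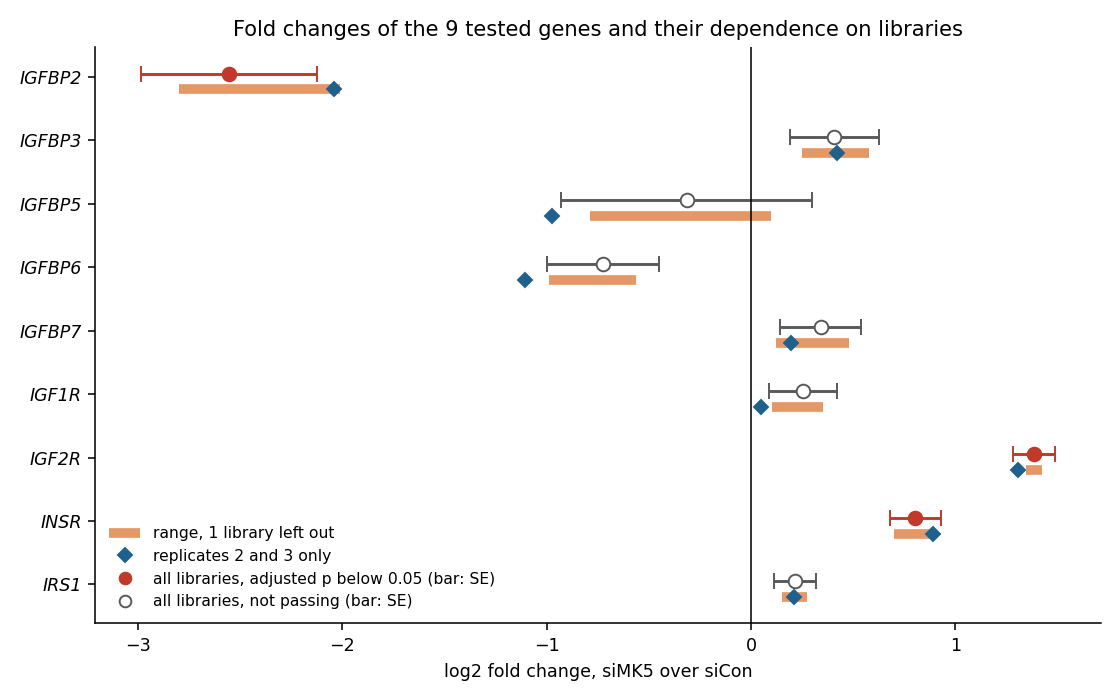
Log2 fold changes of siMK5 over siCon (horizontal axis) for the 9 tested genes, with SE bars, the range when any 1 library is left out, and the value from replicates 2 and 3 alone. The range of IGFBP5 runs from −0.79 to 0.10, and the other 8 genes stay on 1 side of 0.

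The wider pathway was read from 5 lists with 80 genes, of which 73 were tested, 16 rose and 19 fell. These 35 of 73 are near the 46.2% that passed over all tested genes. With scaling by library totals alone, 21 rose and 13 fell. Their median log2 fold change was −0.07, against 0.00 over all tested genes. The first list held the ligands, IGFBP1 and the proteases and protease inhibitors that act on binding proteins. Neither ligand was measurable: IGF1 had 0 counts in each siMK5 library and 1, 0 and 2 counts in siCon replicates 1, 2 and 3, and IGF2 had 1, 0 and 2 counts in siMK5 replicates 1, 2 and 3 and 1, 0 and 0 in siCon replicates 1, 2 and 3. INS had no count. A count of 0 allows a level of up to 0.101 to 0.115 CPM in these libraries. Of 7 genes of this list that were tested, 5 rose and none fell, with a median of 1.31. Over all tested genes 22.5% rose and 46.2% passed in either direction. The list was chosen with earlier results of these data known, so this contrast is no result about the list.

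PAPPA2, a metalloprotease that cleaves IGFBP3 and IGFBP5, was at 23.1, 32.8 and 36.6 CPM in siMK5 replicates 1, 2 and 3 and at 3.72, 5.75 and 6.55 CPM in siCon replicates 1, 2 and 3. The groups were far apart, and the log2 fold change was 2.53 ± 0.27 (SE, edgeR adjusted p = 0.000718). PAPPA, which cleaves IGFBP4 and IGFBP5, was at 93.1, 66.4 and 66.1 CPM in siMK5 and at 43.6, 23.9 and 23.3 CPM in siCon (1.31 ± 0.28, SE, edgeR adjusted p = 0.00877). HTRA1, a secreted serine protease, was at 279, 257 and 236 CPM in siMK5 and at 136, 61.1 and 65.0 CPM in siCon (1.56 ± 0.31, SE, edgeR adjusted p = 0.00681). Both were without overlap between the groups, and control replicate 1 was the highest control in both. ADAM12, a metalloprotease that cleaves IGFBP3 and IGFBP5, rose by 1.29 ± 0.17 on the log2 scale (SE, edgeR adjusted p = 0.00139). Neither PAPPA inhibitor passed, with log2 fold changes of −0.31 for STC1 and −0.47 for STC2 (edgeR adjusted p = 0.180 and 0.129). ADAM12, STC1 and STC2 were chosen for mention after their values were seen.

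IGFBP1, the binding protein that insulin represses in liver, was at 5.07, 9.22 and 10.2 CPM in siMK5 replicates 1, 2 and 3 and at 5.29, 1.81 and 2.52 CPM in siCon replicates 1, 2 and 3. It rose by 1.35 ± 0.45 on the log2 scale (SE, edgeR adjusted p = 0.0441), although siMK5 replicate 1 lay below control replicate 1. It did not pass without siMK5 replicate 2 or 3 or siCon replicate 2 or 3 (edgeR adjusted p from 0.118 to 0.133), nor with replicate number as a block (1.43, edgeR adjusted p = 0.0919). Without control replicate 1 it was 1.92 (edgeR adjusted p = 0.00163).

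Among 20 tested receptor relatives, adaptors and receptor-proximal regulators, 4 rose and 4 fell, with a median of 0.02, and these 8 of 20 are not above the 46.2% over all tested genes. GRB10, an adaptor that binds and restrains both tyrosine kinase receptors, was at 172, 148 and 146 CPM in siMK5 replicates 1, 2 and 3 and at 28.7, 60.6 and 54.7 CPM in siCon replicates 1, 2 and 3 (1.70 ± 0.27, SE, edgeR adjusted p = 0.00285). Its relatives GRB14 and GRB7 fell, with log2 fold changes of −2.97 ± 0.38 and −1.60 ± 0.21 (SE, edgeR adjusted p = 0.00131 and 0.00153). GRB14 was at 1.27 ± 0.231 CPM in siMK5 and 9.95 ± 4.79 CPM in siCon, and GRB7 at 1.603 ± 0.189 in siMK5 and 4.86 ± 0.656 in siCon (SD, n = 3 each). SOCS1, a cytokine-induced inhibitor, fell to 0.529 ± 0.207 CPM in siMK5, against 2.20 ± 0.645 CPM in siCon (SD, n = 3 each; −2.05 ± 0.38, SE, edgeR adjusted p = 0.00526).

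In the PI3K, AKT and mTOR arm 5 of 30 genes rose and 8 fell, with a median of 0.06, and these 13 of 30 are not above the 46.2% over all tested genes. FOXO4, a transcription factor that AKT keeps out of the nucleus, was at 44.7, 33.9 and 36.9 CPM in siMK5 replicates 1, 2 and 3 and at 5.75, 6.16 and 4.90 CPM in siCon replicates 1, 2 and 3 (2.78 ± 0.17, SE, edgeR adjusted p = 0.000201). FOXO1 was at 11.3 ± 2.08 CPM in siMK5 and 2.61 ± 2.39 CPM in siCon (SD, n = 3 each; 2.11 ± 0.59, SE, edgeR adjusted p = 0.0240). FOXO1 did not pass without siMK5 replicate 1, 2 or 3 or siCon replicate 2 or 3 (edgeR adjusted p from 0.0524 to 0.0797), and gave 3.19 without control replicate 1. PIK3CB, a catalytic subunit of PI3K, fell by 1.34 ± 0.16, and PHLPP2, a phosphatase that acts on AKT, fell by 1.30 ± 0.15 (SE, edgeR adjusted p = 0.00107 and 0.00100).

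Of 13 genes that sort lysosomal enzymes by mannose 6-phosphate together with IGF2R, 2 rose and 5 fell, with a median of −0.23. These 7 of 13 stand against 46.2% that passed over all tested genes, which is no result about the list. NAGPA, the uncovering enzyme, rose by 0.74 ± 0.11, and GNPTAB, a subunit of the enzyme that starts the tag, fell by 0.55 ± 0.16 (SE, edgeR adjusted p = 0.00205 and 0.0296). The adaptor gene GGA1 rose by 0.62 ± 0.15 and AP1S1 fell by 0.55 ± 0.16 (SE, edgeR adjusted p = 0.0138 and 0.0267). GGA1 did not pass without siMK5 replicate 2 or 3 (edgeR adjusted p = 0.0524 and 0.0559). GNPTAB and AP1S1 did not pass when any library other than control replicate 1 was left out (edgeR adjusted p from 0.0610 to 0.101). M6PR, the other mannose 6-phosphate receptor, chosen for mention after its values were seen, was at 70.4, 79.1 and 78.9 CPM in siMK5 replicates 1, 2 and 3 and at 113, 87.7 and 84.6 CPM in siCon replicates 1, 2 and 3. Its log2 fold change of −0.32 ± 0.14 did not pass (SE, edgeR adjusted p = 0.0998). Per length M6PR was at 20.2 ± 1.32 CPM per kb in siMK5 and 25.2 ± 4.12 in siCon (SD, n = 3 each), where IGF2R was at 65.4 in siMK5 and 25.02 in siCon.

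Of the 3 IGF2 mRNA-binding proteins, IGF2BP2 and IGF2BP1 fell, with log2 fold changes of −0.94 ± 0.32 and −0.71 ± 0.19, while IGF2BP3 at −0.19 did not pass (SE, edgeR adjusted p = 0.0499, 0.0193 and 0.221). Over all tested genes 23.7% fell, and 2 of 3 genes is no result about the list. IGF2BP2 did not pass without siMK5 replicate 1, 2 or 3 (edgeR adjusted p from 0.0531 to 0.154), nor did IGF2BP1 without siMK5 replicate 2 or 3 (edgeR adjusted p = 0.0756 and 0.0785). Without control replicate 1, IGF2BP2 gave −0.52 (edgeR adjusted p = 0.0392).

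**Figure D4:**
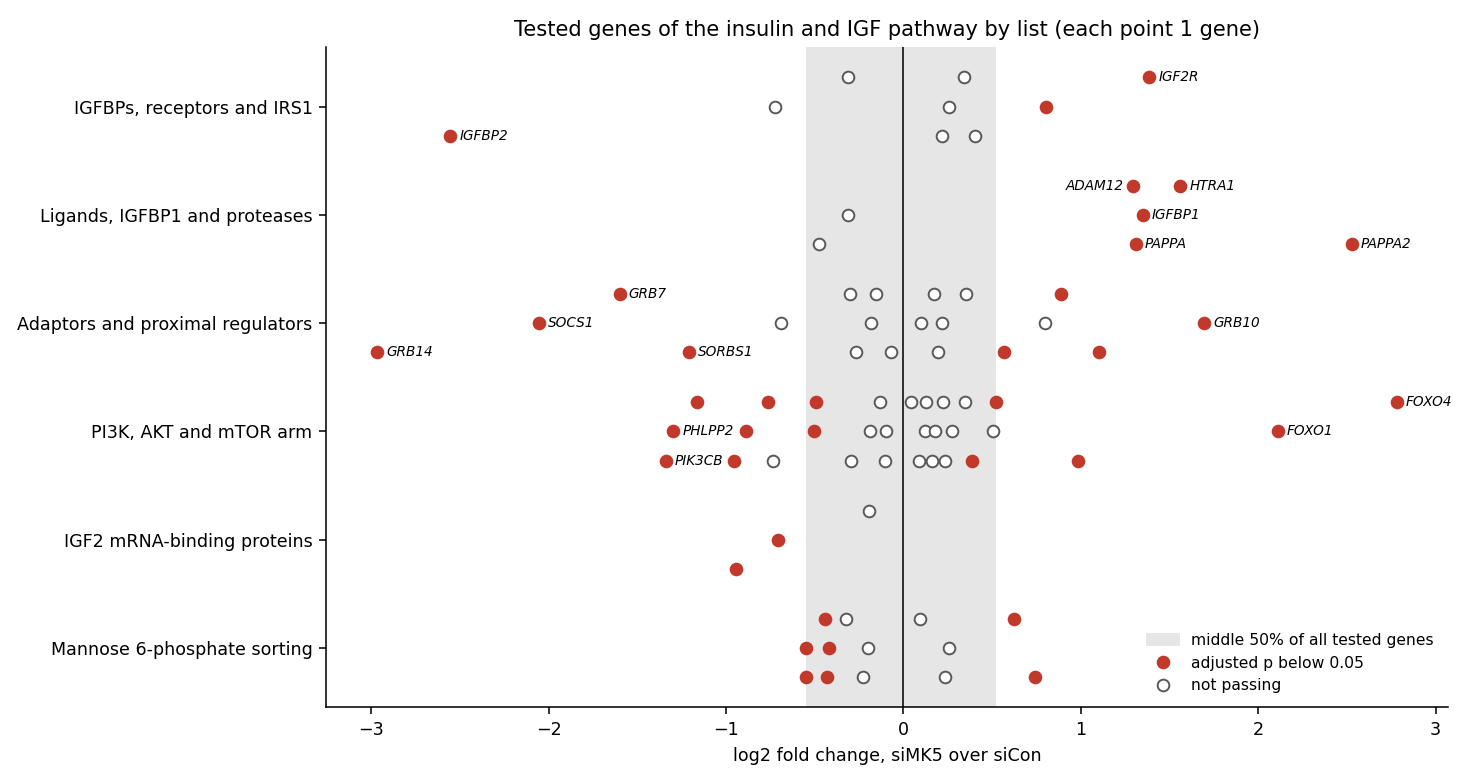
Log2 fold changes of siMK5 over siCon (horizontal axis) for the tested genes of each list, each point 1 gene, filled where the adjusted p is below 0.05, with the middle 50% of all tested genes shaded. IGFBP2 lies at −2.55 and IGF2R at 1.39 in the top row, and all 5 genes that passed in the row of ligands, IGFBP1 and proteases lie to the right.

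Across the 6 libraries, the pattern of each tested gene was set beside 81 genes, those of the lists and the other tested genes described here. By Pearson's r of log2(CPM + 0.5), IGF2R was most like FOXO4 (r = 0.996), INSR most like GIGYF1 (r = 0.998) and IGFBP2 most like GGA2 (r = 0.982). IGFBP6 was most like PHLPP1 (r = 0.986), which passed at −0.95 (edgeR adjusted p = 0.0267) but not with replicate number as a block (−0.91, edgeR adjusted p = 0.0781). IGFBP5 was most like PTPN11 (r = 0.937) and IGF1R like GSK3B (r = 0.978). IGFBP3 was most like SOCS2 (r = 0.959), IGFBP7 like PTPN1 (r = 0.952) and IRS1 like PAPPA (r = 0.926). With 6 libraries in 2 groups, a shared group difference or a shared deviation of replicate 1 is enough for a high value.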

How the data were processed

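RNA-seq counts of 3 siMK5 and 3 siCon libraries were analysed, with groups taken from the sample titles. The authors deposited 1 table of counts per gene and library. Its name speaks of CPM, but the values are whole numbers that sum to different totals in each library and were used as counts. Per the submitters' processing notes, TopHat2 2.1.1, HTSeq 0.9.1, Trimmomatic 0.36, FastQC and the build GRCh37 were used, and per the labels' protocols libraries were made with the TruSeq V2 kit. The sources used here do not give their order, settings, annotation or strand mode. All 6 columns were used, and no row stood for unassigned reads.

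With edgeR 4.0.16 (R 4.3.3), genes were filtered by filterByExpr (minimum count 10, minimum total 15), libraries were scaled by TMM, and siMK5 over siCon was fitted without a block (glmQLFit, glmQLFTest), with Benjamini-Hochberg adjustment over all 13431 genes kept. The SE is the log2 fold change over the square root of F. DESeq2 1.42.0 and limma 3.58.1 on log2(CPM + 0.5) or log2(CPM + 2) were alternatives. The procedure was tested on simulated data, where it missed some of the genes set to differ and called some that were not. A gene that did not pass is thus not shown to be unchanged. Counting depth limits genes near 3 counts, and intervals from depth cover counting error only.

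The groups share replicate numbers. For numbers 1, 2 and 3, deviations from the group means correlated at 0.258, 0.206 and 0.248 across genes, each over 0.1, and same-numbered libraries were treated as pairs in the blocked fit. That pairing is read from the data, as the labels name no shared day. Libraries 2 and 3 also correlated across numbers (0.182 and 0.151), again over 0.1, so these values do not settle how replicates 2 and 3 pair.

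The genes, lists, motifs and alternatives were chosen with earlier results of these data known. Named are all 10 genes, MAPKAPK5, IGF1 and IGF2, the up to 4 passing genes of largest change in each list, the genes most alike in pattern, and those marked as chosen after their values were seen. INS, IGF2BP3, the marker genes and genes overlapping those described were likewise named after their values were seen. Promoters are from RefSeq (GRCh38.p14) and exonic lengths from GENCODE 29, matched by symbol or identifier. That build differs from the submitters', so none of the counts were placed on its coordinates.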

Additional observations from a re-analysis of the deposited data

How the results depend on the processing

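IGFBP2, IGF2R and INSR kept their direction and passed under each of the 14 alternatives. IGFBP2 ranged from −2.80 to −1.18 (limma on log2(CPM + 2), whose pseudocount shrinks low genes), IGF2R from 1.30 to 1.49 and INSR from 0.70 to 0.91. IGFBP5 turned round to 0.091 and 0.081 in limma on log2(CPM + 0.5) and log2(CPM + 2) and to 0.10 without siCon replicate 2, ranged from −0.79 to 0.10 when 1 library was left out, and was −0.01 with the replicate block. The number of the 10 genes that passed was 3 with all libraries, 4 with the replicate block, with DESeq2, with library totals alone and without a filter, 3 to 6 when 1 library was left out, and 8 with replicates 2 and 3 only. IGFBP6 passed in DESeq2 (−0.73, DESeq2 adjusted p = 0.0295) and without a filter (−0.72, edgeR adjusted p = 0.0462), where IGFBP4 gave −1.50 (edgeR adjusted p = 0.220). The number of list genes that passed was 35 with all libraries, 33 with the replicate block, 21 to 54 when 1 library was left out and 60 with replicates 2 and 3 only. Over all genes, 6206 of 13431 passed in the edgeR fit and 6359 of 13431 with the replicate block. When 1 library was left out, 4167 of 13677 (without siMK5 replicate 2) to 8874 of 13774 (without siCon replicate 1) passed. With replicates 2 and 3 only, 10372 of 13690 passed. The highest counts of the 10 genes and of the list genes came in the fits that passed the most genes of all. They are thus no result about these genes. Among the tested genes of the lists and the 9 tested genes described here, the replicate block changed the calls of IGFBP3, IGFBP1 and PHLPP1 and no other. IGF2BP2 also lost its call with RLE size factors, library totals alone and limma, and AP1S1 and GNPTAB with library totals alone. Common variation between libraries of a group (edgeR's BCV) was 21.2% with all libraries, against 4.63% in replicates 2 and 3. The cause of these shifts was not tested.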

Other observations

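Of the binding protein genes, IGFBP2 neighbours IGFBP5 on chromosome 2 and IGFBP1 neighbours IGFBP3 on chromosome 7, and RefSeq lists 0 genes between the members of either pair. IGFBP2 fell by 2.55 on the log2 scale (edgeR adjusted p = 0.00354), while IGFBP5, at −0.31, missed the threshold (edgeR adjusted p = 0.700). IGFBP1 rose by 1.35 (edgeR adjusted p = 0.0441), while IGFBP3, at 0.41, missed it (edgeR adjusted p = 0.167). Differences between neighbours were not tested.

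IGFALS, which carries IGF complexes in serum and is mainly made in liver, had 5, 4 and 5 counts in siMK5 replicates 1, 2 and 3 and 0, 0 and 1 counts in siCon replicates 1, 2 and 3. It was below the filter and was not tested, and it was chosen for mention after its counts were seen.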
